A study of Homo sapiens with 6 samples.

Results

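Aldehyde dehydrogenase genes were followed in RNA sequencing of SK-OV3 cells, a human ovarian cancer line that lacks p53. The 10 members were taken by symbol from the count table: ALDH1A1, ALDH1A2, ALDH1A3, ALDH1B1, ALDH2, ALDH3A1, ALDH3A2, ALDH3B1, ALDH7A1 and ALDH18A1. All 10 were found among the 59653 rows, and all 10 were among the 19008 genes with enough counts to test. The groups were 3 siControl libraries, from cells given a non-targeting siRNA pool, and 3 siPVT1 libraries, from cells given a pool of siRNAs against the lncRNA PVT1. Cells of both groups were labelled wildtype and were transfected at 50 nM for 48 h. The comparison asked which transcripts differ when PVT1 is lowered. The design holds 1 cell line and 1 pool against PVT1, and the labels do not say whether replicates were separate cultures, so that p-values measure the spread between these libraries only.

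Aldehyde dehydrogenases oxidize reactive aldehydes to carboxylic acids with NAD or NADP. The ALDH1A enzymes make retinoic acid from retinal, ALDH2 and ALDH1B1 clear acetaldehyde and lipid aldehydes in mitochondria, and the ALDH3 enzymes act on fatty and aromatic aldehydes. ALDH7A1 works in lysine breakdown and ALDH18A1 in proline synthesis. High aldehyde dehydrogenase activity is widely used as a mark of stem-like cells in ovarian and other carcinomas, and ALDH1A1 and ALDH1A3 are the isoforms most often linked to it.

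Total counts ranged from 28383171 to 35059576 per library. PVT1 itself, the target, had 3298, 4090 and 3377 normalized counts in siControl against 2350, 2111 and 2062 in siPVT1, where libraries are listed here and below in the order of replicates 1, 2 and 3. It was lower in every siPVT1 library, and most of it was still present there. Of 8 epithelial markers, KRT7, KRT8, KRT18, ERBB2 and PAX8 had at least 896.5 normalized counts in every library, KRT19 had 242.5 to 1712 and MUC1 9.83 or fewer. EPCAM had 64.8, 127 and 97.9 in siControl and 51.2, 107 and 41.3 in siPVT1, highest in replicate 2 of each group. Of the 8, 4 rose in siPVT1 (KRT8, KRT18, KRT19 and PAX8), 2 fell (KRT7 and ERBB2) and 2 did not pass. Among 8 markers of other cell types, CD3E was at 0 counts in every library and PTPRC at 2 or fewer. Of the 8, 4 could be tested, of which 2 rose in siPVT1 (the endothelial markers PECAM1, from a mean of 37.6 to 299 normalized counts, and VWF, from 24.4 to 77.4), 1 fell (CD14) and 1 did not pass (GFAP). The part of other cells in the results below was not tested. Both replicate 2 libraries stood apart in 31 genes that are described with ALDH1A1, and values without these libraries are given with the members' counts below.

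Of the 10 members, 3 fell in siPVT1 (ALDH1A3, ALDH1B1 and ALDH3A2), 2 rose (ALDH2 and ALDH7A1) and 5 did not pass the test (ALDH1A1, ALDH1A2, ALDH3A1, ALDH3B1 and ALDH18A1). A gene passed at a Benjamini-Hochberg adjusted p under 0.05 in edgeR's quasi-likelihood test over all genes. By this rule 28.4% of all genes tested were lower and 29.5% were higher, so that 3 lower and 2 higher members of 10 are near the background. With the study's further threshold of a 2-fold change, 9.64% of all genes were lower and 11.8% were higher, and 0 members were either. Of the members that passed the test ALDH3A2 came nearest, at −0.97 on the log2 scale (siPVT1 over siControl, as for all log2 values here), and it was past 2-fold with scaling by the total count and without siPVT1 replicate 3. Groups did not overlap in 5 of the 10 members, the same 5 that passed the test, against 65.6% of all genes. The median log2 fold change was −0.11 over the 10 members and 0.0014 over all genes. Without both replicate 2 libraries 3 members were lower and 1 was higher. The log2 fold changes were then −0.69 for ALDH1A3, −0.74 for ALDH1B1, −0.97 for ALDH3A2 and 0.74 for ALDH7A1, which kept their calls, and 0.20 for ALDH2, which lost its call (adjusted p = 0.168). ALDH3B1 was at −0.28 and ALDH18A1 at 0.19, and neither passed. ALDH1A2 and ALDH3A1 had too few counts to be tested in that fit.

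**Figure D1:**
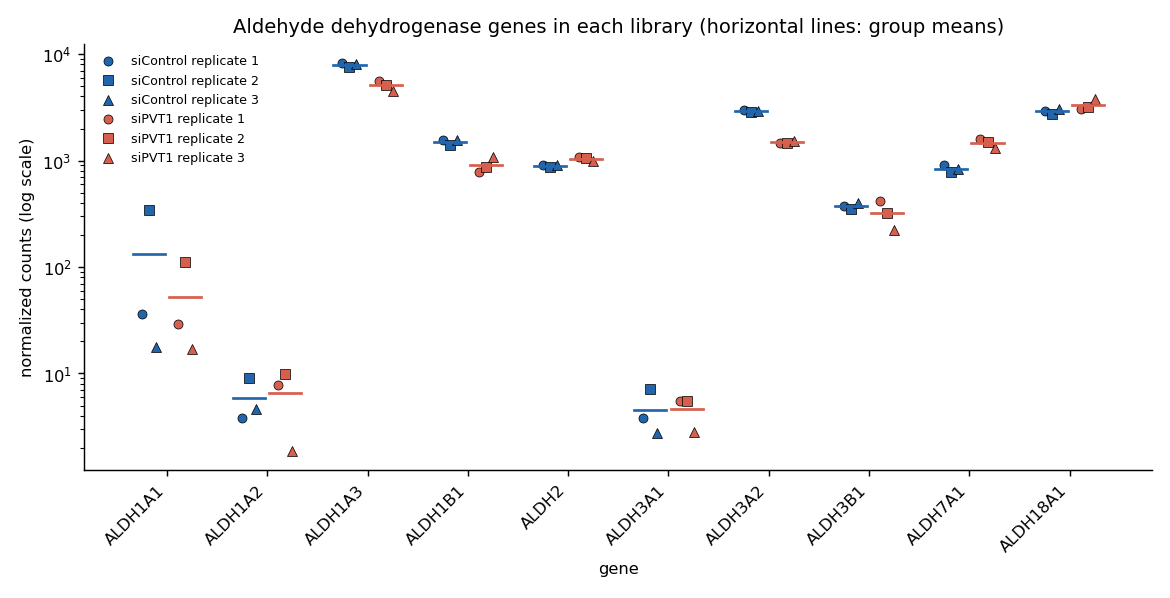
Normalized counts (log scale) of the 10 members in each of 6 libraries, with siControl in blue, siPVT1 in red, marker shape for the replicate number and a line at each group mean. ALDH3A2 is near 2911 in siControl and 1485 in siPVT1, and ALDH1A1 is set apart by its replicate 2 libraries, at 344 and 112.5.

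ALDH1A3, the retinal-oxidizing member with the highest level per kilobase of exon, fell by 36.2% in siPVT1. The gene lies on chromosome 15 from 100877714 to 100916626 on the plus strand (GRCh38). It had 8186, 7619 and 8064 normalized counts in siControl against 5541, 5180 and 4514 in siPVT1. The siPVT1 libraries were all below the lowest of siControl. The mean went from 7956 ± 298 to 5078 ± 521 (SD, n = 3), a log2 fold change of −0.65 (standard error, SE, 0.082, edgeR adjusted p = 0.000248). In these bulk libraries, fewer cells with a transcript and less of it per cell cannot be told apart. Exons of ALDH1A3 overlap those of the antisense gene ALDH1A3-AS1 and those of ENSG00000272639, which lies on the same strand as ALDH1A3. The strand setting of the counting is not given in the sources used here.

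The other retinal-oxidizing members were low or uneven. ALDH1A2, an enzyme of embryonic retinoic acid synthesis, had between 1.88 and 9.83 normalized counts in the 6 libraries, and a log2 fold change of 0.13 (SE 0.62, edgeR adjusted p = 0.873). Its few counts left a wide error. ALDH1A1, the cytosolic retinal dehydrogenase, had 36.2, 344 and 17.6 normalized counts in siControl. It had 29.0, 112.5 and 16.9 in siPVT1 replicates 1, 2 and 3. Replicate 2 was the highest library of each group and the groups overlapped. The log2 fold change of −1.33 had a standard error of 1.07 (edgeR adjusted p = 0.321), and it was 0.96 without siControl replicate 2, −2.56 without siPVT1 replicate 2 and −0.24 without both (adjusted p = 0.723). Its size thus depended on the replicate 2 libraries, and its sign turned without siControl replicate 2.

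The libraries labelled replicate 2 shared more than ALDH1A1. After these values were seen, genes were sought with at least 20 normalized counts in the siControl library of 1 replicate number, at least 4 times the higher of the other two siControl libraries, and in siPVT1 at least 4 normalized counts and 2 times the other libraries. There were 31 such genes for replicate 2, against 2 for replicate 1 and 3 for replicate 3, and ALDH1A1 was the sole member among them. The others included LYZ (lysozyme), REG4, CLCA1, TFF1 (a trefoil peptide of gastric mucus), CLDN18, AGR2, GSTA1 and GPX2. LYZ had 18.1, 248.5 and 4.62 normalized counts in siControl against 15.6, 86.3 and 12.2 in siPVT1. TFF1 had 1.91, 101 and 1.85 normalized counts in siControl and 3.34, 19.7 and 1.88 in siPVT1. The summed normalized counts of the 31 genes were 215, 2715 and 88.7 in siControl against 155, 841 and 148.5 in siPVT1. ALDH1A1 was 3.05 times as high in siControl replicate 2 as in siPVT1 replicate 2, and the 31 genes ranged from 1.57 to 14.3 times with a median of 3.26. The rule asked for a larger excess in siControl than in siPVT1, which favours ratios above 1. Small structured RNAs were among them as well (SNORD3D, RMRP, RNU4-1 and RNU4-2). The part of other RNA in these libraries was not tested.

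**Figure D2:**
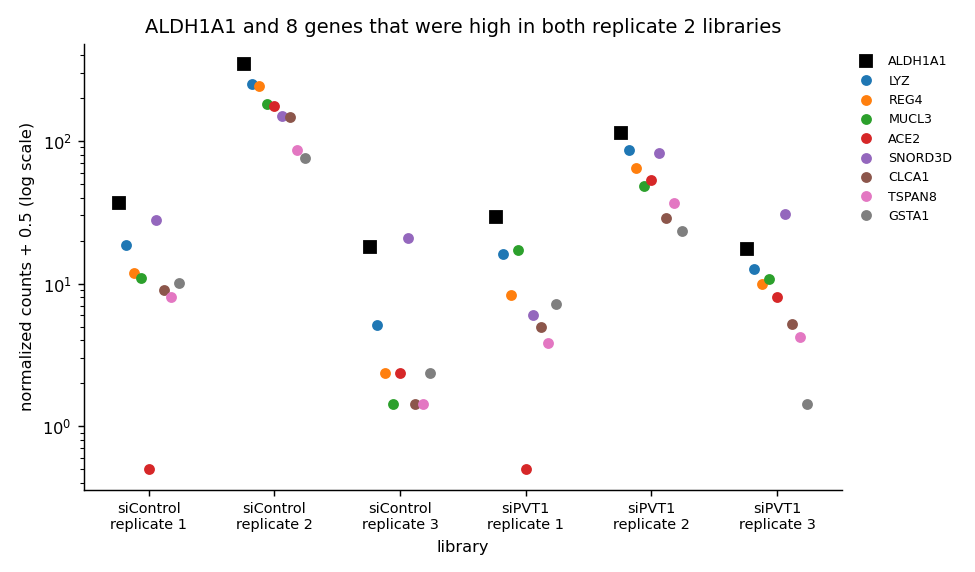
Normalized counts plus 0.5 (log scale) of ALDH1A1 (black squares) and 8 other tested genes of the 31 (circles) in each library, offset sideways for clarity. In each group every one of these genes is highest in replicate 2, as the rule that picked them requires. ALDH1A1 reached 344 there in siControl and 112.5 in siPVT1.

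Beside ALDH1A3, genes that handle vitamin A moved both ways. Of 24 retinoid genes 18 were tested, and 5 rose, 5 fell and 8 did not pass, with a median log2 fold change of 0.059. Over all genes tested 29.5% were higher and 28.4% were lower. DHRS3, which reduces retinal back to retinol, rose from 135 ± 9.69 normalized counts to 1561 ± 278 (mean ± SD, n = 3), a difference of 3.53 on the log2 scale (SE 0.15, edgeR adjusted p = 1.45e-06). CYP26B1, which degrades retinoic acid, rose from 222 ± 8.48 normalized counts to 440.5 ± 56.6 (mean ± SD, n = 3), a difference of 0.99 on the log2 scale (SE 0.11). RDH11, another retinal reductase, had a log2 fold change of 0.99 (SE 0.11) as well. RDH10, the main enzyme making retinal from retinol, fell from 445.5 ± 27.0 normalized counts to 309 ± 38.9 (mean ± SD, n = 3), a difference of −0.53 on the log2 scale (SE 0.11). RDH13, a retinal reductase as well, fell (log2 −0.81), and so did RXRA, a retinoid receptor (log2 −0.32), so that retinal reductases went both ways. The retinoic acid receptor RARB and the retinol transporter STRA6 rose with log2 fold changes of 0.40 and 0.80, and RDH5 fell with −0.97. These last 3 calls were lost without both replicate 2 libraries, at adjusted p of 0.124, 0.0522 and 0.112. In DESeq2 RARB and RDH5 did not pass (adjusted p = 0.0803 and 0.0874), and RARB did not pass with scaling by the total count (adjusted p = 0.117). RPE65, a retinoid isomerase, passed the test as lower with 7, 5 and 7 counts in siControl and 0 in each siPVT1 library, at least 1.93-fold lower against 3 counts per library.

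ALDH3A2, the fatty aldehyde dehydrogenase that is mutated in Sjögren-Larsson syndrome, had the smallest p of the 10 members and fell by 49.0%. It lies on chromosome 17 from 19648136 to 19685760 on the plus strand. Normalized counts were 2972, 2860 and 2901 in siControl against 1455, 1464 and 1535 in siPVT1. The spread within groups was small, with a coefficient of variation of 1.95% in siControl and 2.95% in siPVT1, and the groups were far apart. The mean went from 2911 ± 56.7 to 1485 ± 43.8 (SD, n = 3), with a log2 fold change of −0.97 (SE 0.057, edgeR adjusted p = 5.51e-06). With 1 library left out the log2 fold change lay between −1.01 and −0.96, and scaling by the total count gave −1.12.

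ALDH3A1 and ALDH3B1, the other ALDH3 members, did not pass the test. ALDH3A1, best known as a corneal enzyme and as a target of the aryl hydrocarbon receptor, had between 3 and 7 counts in each library and a log2 fold change of 0.013 (SE 0.54). The error was again wide at these counts. ALDH3B1, which oxidizes aldehydes of lipid peroxidation at membranes, had 374, 352 and 399 normalized counts in siControl against 416.5, 319 and 222 in siPVT1. The siPVT1 libraries lay on both sides of siControl, with a coefficient of variation of 30.5% against 6.33%. The log2 fold change was −0.24 (SE 0.20, edgeR adjusted p = 0.341), and it was −0.49 without siPVT1 replicate 1 (adjusted p = 0.0264) and −0.045 without siPVT1 replicate 3. ALDH3B2, its close paralog, had 6 counts or fewer in every library, and summing both genes gave −0.25.

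The list set beside ALDH3A2 held genes of long-chain lipid aldehydes and also genes of sphingosine 1-phosphate. Of 9 genes 8 were tested, and 5 fell, 1 rose and 2 did not pass, with a median log2 fold change of −0.38. Over all genes tested 28.4% were lower. The genes that fell were SPHK1, SPHK2 and SGPP1, of sphingosine 1-phosphate, and SGPL1 and FAR1. SPHK1 and SPHK2, which make sphingosine 1-phosphate, fell with log2 fold changes of −1.24 (SE 0.080) and −1.05 (SE 0.11). SGPL1, the lyase that splits sphingosine 1-phosphate into hexadecenal, a substrate of ALDH3A2, fell from 3750 ± 27.5 normalized counts to 2705 ± 352 (mean ± SD, n = 3). Its log2 fold change was −0.47 (SE 0.092, edgeR adjusted p = 0.0026, and 0.0523 without both replicate 2 libraries). FAR1, which makes fatty alcohols for ether lipids, fell with −0.70 (SE 0.12), and FAR2, its paralog, rose with 0.53 (SE 0.091).

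ALDH7A1, which oxidizes aminoadipic semialdehyde in lysine breakdown and is mutated in pyridoxine-dependent epilepsy, rose by 74.0%, the largest rise of the 10 members. It lies on chromosome 5 from 126531200 to 126595362 on the minus strand. Normalized counts were 899.9, 781 and 841 in siControl against 1595, 1486 and 1309 in siPVT1. The siPVT1 libraries were all above the highest of siControl. The mean went from 840.5 ± 59.5 to 1463 ± 144 (SD, n = 3), with a log2 fold change of 0.80 (SE 0.093, edgeR adjusted p = 0.000159). The processed copy ALDH7A1P1 had between 2 and 10 counts in each library, so that few reads were assigned to it.

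Other genes of lysine breakdown moved both ways. Of 8 genes 7 were tested, and 3 rose, 3 fell and 1 did not pass, against 29.5% higher and 28.4% lower over all genes tested. AASS, the enzyme that supplies aminoadipic semialdehyde to ALDH7A1, rose from 565 ± 24.0 normalized counts to 1028 ± 67.6 (mean ± SD, n = 3), a difference of 0.86 on the log2 scale (SE 0.079, edgeR adjusted p = 4.43e-05). DHTKD1, which acts on 2-oxoadipate, rose with 0.79 (SE 0.069), and PHYKPL, of hydroxylysine breakdown, with 0.57 (SE 0.11). AADAT, the aminotransferase between ALDH7A1 and DHTKD1, fell from 183 ± 10.2 normalized counts to 57.0 ± 16.1 (mean ± SD, n = 3), a difference of −1.67 on the log2 scale (SE 0.19). GCDH, glutaryl-CoA dehydrogenase, fell from 339 ± 19.8 normalized counts to 169 ± 8.25 (mean ± SD, n = 3), so that steps on either side of AADAT rose and AADAT itself and the step after DHTKD1 fell. CRYM, a ketimine reductase, passed the test as lower with 16, 17 and 16 counts in siControl and 2, 2 and 0 in siPVT1.

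The 250 bases upstream of the RefSeq start are shown for ALDH3A2 and ALDH1A3, which fell, and for ALDH7A1, which rose, because these members carry the clearest differences. They are read 5′ to 3′ on the strand of each gene, at chr17:19648501-19648750 (plus strand) for ALDH3A2, chr15:100879581-100879830 (plus strand) for ALDH1A3 and chr5:126595220-126595469 (minus strand) for ALDH7A1, in GRCh38.p14. Capitals mark matches on either strand to the letters of 6 motifs.
ALDH3A2: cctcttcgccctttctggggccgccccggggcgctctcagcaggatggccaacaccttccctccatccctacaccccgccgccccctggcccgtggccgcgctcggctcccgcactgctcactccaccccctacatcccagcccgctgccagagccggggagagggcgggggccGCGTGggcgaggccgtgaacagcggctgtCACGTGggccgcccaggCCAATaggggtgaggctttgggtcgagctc
ALDH1A3: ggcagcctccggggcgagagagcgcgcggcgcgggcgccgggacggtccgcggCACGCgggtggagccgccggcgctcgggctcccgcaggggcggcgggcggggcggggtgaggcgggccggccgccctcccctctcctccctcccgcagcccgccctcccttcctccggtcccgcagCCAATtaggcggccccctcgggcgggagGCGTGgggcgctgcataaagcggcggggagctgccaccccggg
ALDH7A1: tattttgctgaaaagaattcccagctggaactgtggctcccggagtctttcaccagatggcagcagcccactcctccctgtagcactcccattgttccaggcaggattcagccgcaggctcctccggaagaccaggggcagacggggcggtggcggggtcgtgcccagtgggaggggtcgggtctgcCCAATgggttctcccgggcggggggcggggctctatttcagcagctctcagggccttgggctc

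The motifs were the antioxidant response element core TGACNNNGC, the xenobiotic response element core GCGTG, the hypoxia response element core ACGTG, the E-box CACGTG, the CCAAT box and the TATA box TATAAA. An E-box holds the hypoxia core on both strands, so that the 2 hypoxia core matches of ALDH3A2 are its 1 E-box. ALDH3A2 also held 1 xenobiotic core, ALDH1A3 held 2, and ALDH7A1 held none of these motifs but the CCAAT box, of which each of the 3 promoters had 1. RefSeq upstream sequence was matched for 8 of the 10 members (not ALDH2 or ALDH3A1). The antioxidant core was in 0 of these 8 and in 10.9% of 35116 promoters of the same length, the xenobiotic core in 3 and in 32.2%, the hypoxia core in 4 and in 18.5%, the E-box in 2 and in 6.34%, the CCAAT box in 6 and in 32%, and the TATA box in 0 and in 10.7%. The windows lie upstream of the MANE Select start, and longer annotated transcripts can begin before it. A match of letters is a description and not a binding site.

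The mitochondrial pair ALDH2 and ALDH1B1, close paralogs that both clear acetaldehyde, passed the test in opposite directions. ALDH1B1 lies on chromosome 9 from 38392702 to 38398661 on the plus strand. It had 1558, 1409 and 1561 normalized counts in siControl against 787, 873 and 1075 in siPVT1, and the groups did not overlap. Its log2 fold change was −0.73 (SE 0.11, edgeR adjusted p = 0.000842), and it fell by 39.5%. ALDH2, on chromosome 12 from 111766887 to 111817532 on the plus strand, had 902, 866 and 902 normalized counts in siControl and 1087, 1060 and 988.5 in siPVT1, again without overlap. Its log2 fold change was 0.23 (SE 0.068, edgeR adjusted p = 0.0187), a rise by 17.4%. Exons of ALDH2 overlap those of ENSG00000257767 on the same strand. The ALDH2 call was lost without siControl replicate 1, 2 or 3 or siPVT1 replicate 2 (adjusted p from 0.0589 to 0.071), and with scaling by the total count (log2 fold change 0.083, adjusted p = 0.304).

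A list of alcohol dehydrogenases, genes of acetate use and related enzymes had 3 higher and 0 lower of 6 tested among 12. Its median log2 fold change was 0.21, and 29.5% of all genes tested were higher. ACSS2, which turns acetate into acetyl-CoA in the cytosol and nucleus, rose from 279.5 ± 13.6 normalized counts to 945 ± 158 (mean ± SD, n = 3), a difference of 1.75 on the log2 scale (SE 0.13, edgeR adjusted p = 1.6e-05). ACSS3, a mitochondrial acyl-CoA synthetase, rose with 0.96 (SE 0.16). The third was AKR1A1, an aldehyde reductase, with 0.25 (SE 0.067, adjusted p = 0.0129), a call that was lost without both replicate 2 libraries (adjusted p = 0.12) and with scaling by the total count (adjusted p = 0.19). ACSS1, a mitochondrial acetyl-CoA synthetase, had a log2 fold change of −0.22 (adjusted p = 0.0957), and it passed as lower with scaling by the total count (−0.37, adjusted p = 0.011), where the list was 2 higher and 1 lower. ADH5, the class III alcohol dehydrogenase, had a log2 fold change of 0.17 (adjusted p = 0.0549). ADH4, ADH6 and ADH7 were at 0 counts in every library.

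ALDH18A1, the pyrroline-5-carboxylate synthase that begins proline synthesis from glutamate, did not pass the test. It lies on chromosome 10 from 95605941 to 95656711 on the minus strand. Normalized counts were 2907, 2736 and 3080 in siControl against 3049, 3159 and 3764 in siPVT1, so that the groups overlapped and siPVT1 replicate 3 was the highest library. The log2 fold change was 0.19 (SE 0.091, edgeR adjusted p = 0.102). Without siPVT1 replicate 1 it was 0.24 (adjusted p = 0.0438) and without siPVT1 replicate 3 it was 0.078.

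PYCR1 and PYCR3, reductases that follow ALDH18A1, were lower. Of 9 genes of proline and ornithine synthesis 6 were tested, and 4 fell, 1 rose and 1 did not pass, with a median log2 fold change of −0.34. Over all genes tested 28.4% were lower and 29.5% were higher. PYCR3 fell from 582 ± 52.8 normalized counts to 148.5 ± 21.7 (mean ± SD, n = 3), a difference of −1.97 on the log2 scale (SE 0.13, edgeR adjusted p = 8.43e-06). PYCR1, a mitochondrial isoform, fell with a log2 fold change of −0.47 (SE 0.090, edgeR adjusted p = 0.00237). OAT, which turns ornithine into the same product as ALDH18A1, rose with 0.44 (SE 0.072).

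**Figure D3:**
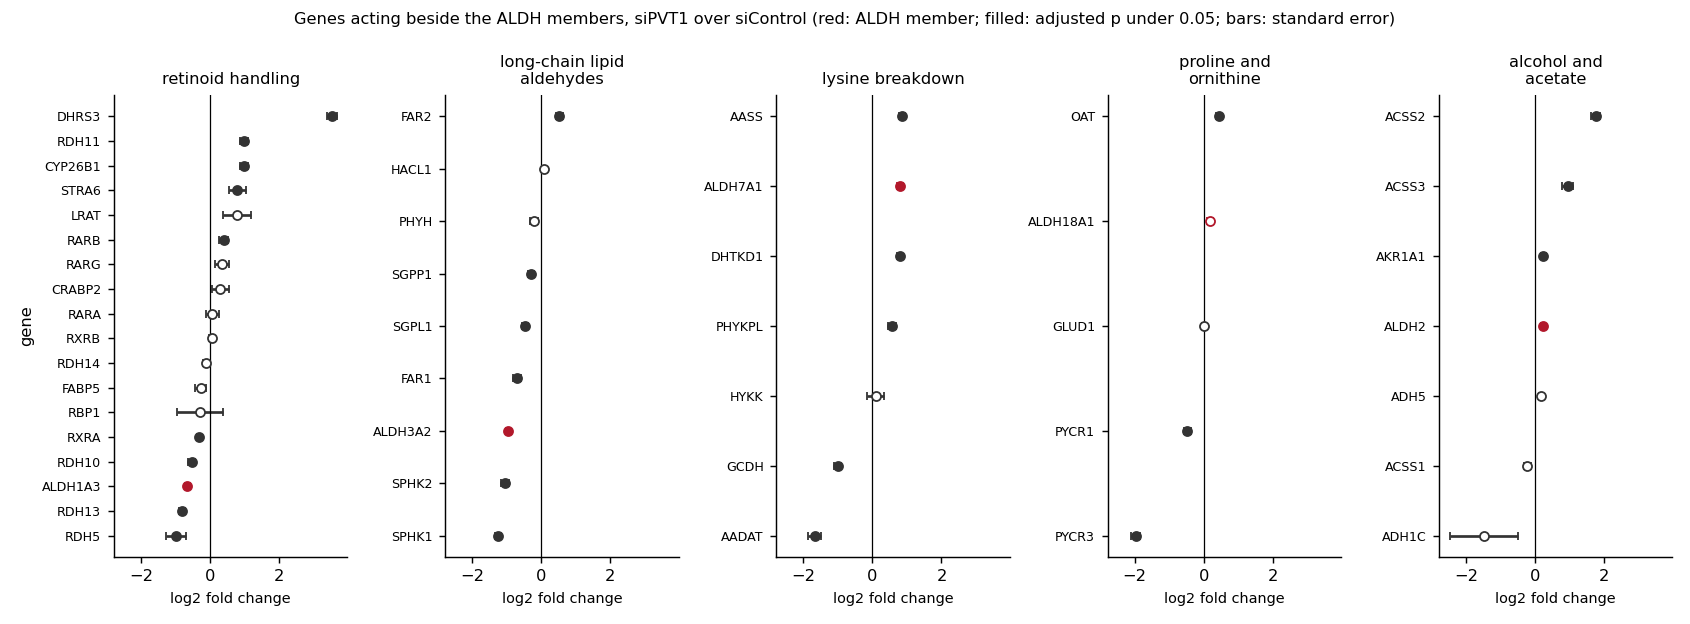
Log2 fold change (siPVT1 over siControl) with its standard error for tested genes of 5 lists, each with the ALDH member that works beside it in red, filled where the adjusted p is under 0.05. RPE65 and CRYM are left out because siPVT1 had 3 counts or fewer of them in every library. DHRS3 is at 3.53, PYCR3 at −1.97 and AADAT at −1.67.

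The 9 other ALDH genes of the family include some with larger changes. Of these 8 were tested, and 2 fell, 2 rose and 4 did not pass. The 2 that fell and the 2 that rose were all past 2-fold, against 9.64% lower and 11.8% higher past 2-fold over all genes tested. ALDH1L2, the mitochondrial formyltetrahydrofolate dehydrogenase, fell from 1533 ± 45.7 normalized counts to 550 ± 108 (mean ± SD, n = 3), a difference of −1.48 on the log2 scale (SE 0.13, edgeR adjusted p = 3.86e-05). ALDH5A1, succinic semialdehyde dehydrogenase, fell from 468 ± 17.2 normalized counts to 222 ± 12.2 (mean ± SD, n = 3), a difference of −1.08 on the log2 scale (SE 0.086, edgeR adjusted p = 2.33e-05). ALDH6A1, of valine breakdown, rose from 132 ± 4.25 normalized counts to 315 ± 77.4 (mean ± SD, n = 3), a difference of 1.25 on the log2 scale (SE 0.18, edgeR adjusted p = 0.000584). ALDH1L1, the cytosolic counterpart of ALDH1L2, had 3, 4 and 2 counts in siControl and 9, 6 and 8 in siPVT1 (edgeR adjusted p = 0.0272), a call that was lost in DESeq2 (adjusted p = 0.144) and without siControl replicate 1 or 3 (adjusted p = 0.0741 and 0.0929). ALDH4A1, ALDH8A1, ALDH9A1 and ALDH16A1 had log2 fold changes from −0.27 to 0.17. Over the 18 tested ALDH genes the median log2 fold change was −0.15, with 4 higher and 5 lower.

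**Figure D4:**
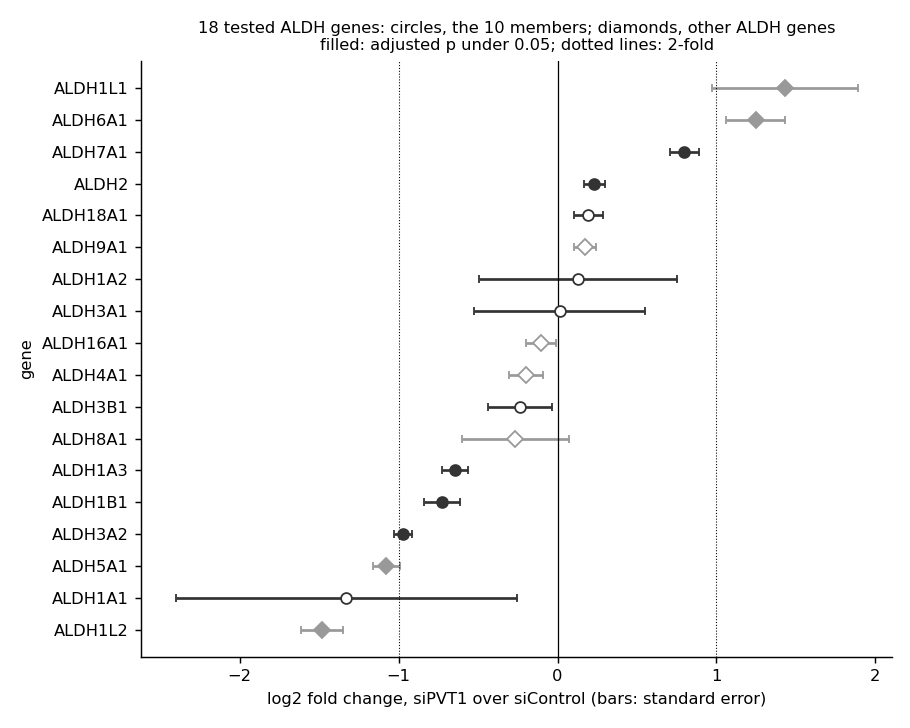
Log2 fold change (siPVT1 over siControl) with its standard error for the 18 tested ALDH genes, with the 10 members as circles and the others as diamonds, filled where the adjusted p is under 0.05, and dotted lines at a 2-fold change. ALDH1L2 (−1.48), ALDH5A1 (−1.08), ALDH6A1 (1.25) and ALDH1L1 (1.43) are filled beyond the lines, and none of the 10 members is (ALDH1A1, at −1.33, is open).

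Levels were compared between members as normalized counts per kilobase of merged exons. In siControl, ALDH1A3 was highest at 1491 ± 55.9 per kilobase (SD, n = 3), followed by ALDH18A1 at 774 ± 45.8, ALDH1B1 at 484 ± 27.8, ALDH3A2 at 189.9 ± 3.70 and ALDH2 at 91.5 ± 2.13. ALDH3B1 had 56.6 ± 3.59 per kilobase, ALDH7A1 46.9 ± 3.32 and ALDH1A1 46.6 ± 64.4, and the spread of ALDH1A1 reached past ALDH7A1, ALDH3B1 and ALDH2. ALDH3A1 and ALDH1A2 were lowest, at 1.17 ± 0.58 and 0.72 ± 0.35 per kilobase, and did not differ beyond their spread. In siPVT1, ALDH1A3 (952 ± 97.7 per kilobase) and ALDH18A1 (884 ± 102) no longer differed beyond their spread by this length, whereas by the MANE Select length they did (1464 ± 150 and 992 ± 115). By the length of the MANE Select transcript, the order in siControl was ALDH1A3, ALDH18A1, ALDH3A2, ALDH1B1, ALDH7A1, ALDH3B1, ALDH2, ALDH1A1, ALDH3A1 and ALDH1A2, so that ALDH3A2 and ALDH7A1 moved up and ALDH1A3 and ALDH18A1 kept their places. On this scale ALDH1A3 made 46.6% ± 0.82 of the sum of the 10 members in siControl and 39.4% ± 3.46 in siPVT1 (SD, n = 3 each). The summed normalized counts of the 10 members were 17530 ± 478 in siControl and 13690 ± 273 in siPVT1, and without ALDH1A3 they were 9576 ± 186 and 8612 ± 264.

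**Figure D5:**
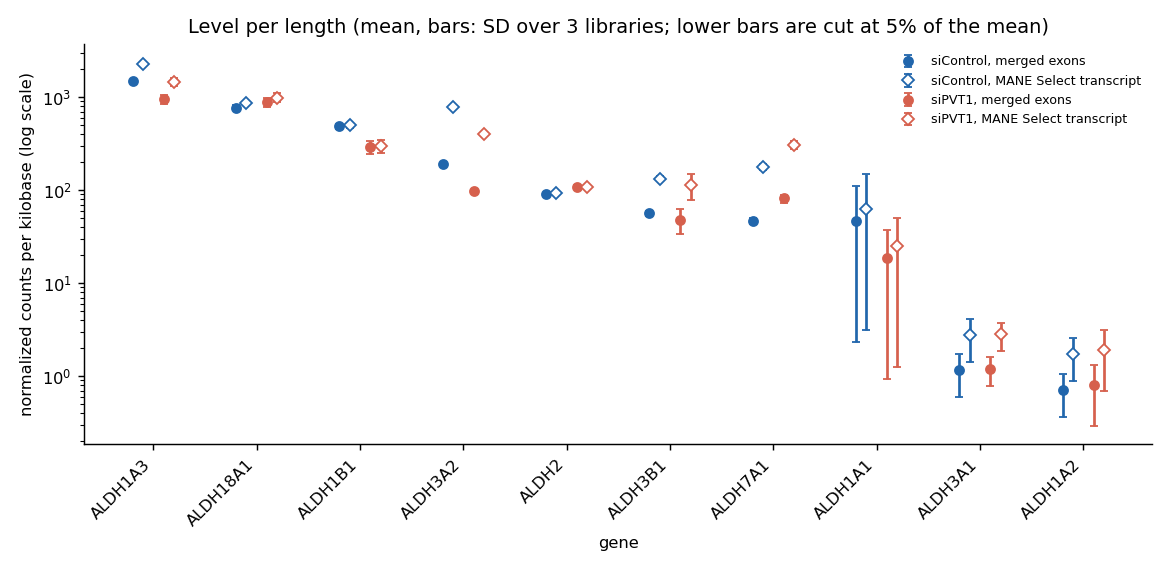
Normalized counts per kilobase (log scale, mean and SD over 3 libraries) of the 10 members in siControl (blue) and siPVT1 (red), by merged exons (filled circles) and by the MANE Select transcript (open diamonds), with the lower bars of ALDH1A1 shortened because they would pass below 0. ALDH1A3 is highest by either length in siControl, at 1491 and 2293 per kilobase, and ALDH3A1 and ALDH1A2 are below 3 per kilobase in both groups.

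The genes most like ALDH3A2 over the 6 libraries, by Pearson's r of log2 normalized counts, included GBF1 (r = 0.9999) and FAM86JP (r = 0.9999). Those most like ALDH7A1 were PNISR (r = 0.9999), RUNDC3A (r = 0.9996) and FEZ1 (r = 0.9996). These values describe 6 libraries that fall into 2 groups, and any gene with a like step between the groups and little spread gives a high r. The log2 fold changes of these genes ranged from −1.32 for FAM86JP to 1.84 for RUNDC3A.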

How the data were processed

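RNA was extracted with Trizol and mRNA libraries were prepared with a KAPA kit and sequenced single-end. Reads were aligned by the authors with STAR 2.7.3a and counted with Salmon 0.14.1 (versions from the submitters' processing notes) on GENCODE v35 (GRCh38.p13). The table they deposited holds 1 row per symbol with estimated counts rounded to whole numbers and not normalized, and the strand setting is not given in the sources used here. All 6 columns were matched to a sample through its description, and 25268 of 59653 genes had 0 counts throughout.

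These counts were fitted in edgeR 4.0.16 under R 4.3.3 (TMM scaling, quasi-likelihood test), keeping a gene where 3 or more libraries had 5 or more normalized counts. Normalized counts are counts scaled to the mean effective library size. The standard error (SE) was taken as the size of the log2 fold change divided by the root of F. Lists were counted without a set test. The members and lists were chosen with earlier results of these data known. All 10 members, genes of the fixed lists past the 2-fold rule or needed to describe a list, PVT1 and the 3 genes most like the member with the smallest p in each direction were named. Some genes that the rule names are not reported here, though counts and medians over lists include them. Alternatives were DESeq2 1.42.0, its size factors, total-count scaling, no filter, filterByExpr, a replicate block, each library left out and the 2-fold rule. The fits were run on simulated counts with few changed genes and a fixed dispersion. These settings differ from the data here, so that the run checks the code only. Its recovery criterion was narrowed to genes with more counts after DESeq2 did not meet the first. Gene positions and lengths came from GENCODE v44 and upstream sequences from RefSeq. Motifs were picked by no fixed rule, and a retinoic acid response element was also searched and left out because almost no promoter held it. Two-sided exact permutation tests of 3 against 3 libraries cannot go below p = 0.1, the value given by each member whose groups did not overlap.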

Additional observations from a re-analysis of the deposited data

How the results depend on the processing

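The calls of ALDH1A3, ALDH1B1, ALDH3A2 and ALDH7A1 and their directions held in all 13 alternative fits, including the fit without both replicate 2 libraries, which was chosen after seeing the data. The number of genes past the adjusted p was 11007, and it was 6897 without both replicate 2 libraries and 4081 with the 2-fold rule. Leaving out 1 library gave from 9091 to 11944 genes. The number of higher members, 2, was 1 with scaling by the total count and 1 without both replicate 2 libraries, in both through ALDH2. With 1 library left out it was from 1 to 3, and that of lower members from 3 to 4. With the 2-fold rule 0 members were higher and 0 were lower. Scaling by the total count shifted all genes by a median of −0.15 (log2) and the share of called genes that were higher from 51% to 39.4%, and GLUD1 turned from 0.019 to −0.13. The labels give both groups replicate numbers 1 to 3. Deviations of same-numbered libraries correlated at −0.032, 0.021 and 0.001 over all genes tested, and the numbers were not taken as pairs in the main fit. Such correlations cannot show what libraries share in a few genes, such as the 31 that were high in both replicate 2 libraries. With the number as a block, 10446 genes were called and no member's call changed, and ALDH1A1 had a log2 fold change of −0.90 (edgeR adjusted p = 0.0522). Few counts gave wide errors for ALDH1A2 and ALDH3A1.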
